A study of Rattus norvegicus with 11 samples.

Results

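Glucose entry, glycogen breakdown and glycolysis in the heart ventricle were followed through 10 rat genes, taken in the order in which glucose passes through their products. They were the transporters Slc2a1 and Slc2a4, the hexokinases Hk1 and Hk2, the phosphofructokinase Pfkm, the aldolase Aldoa, the mutase Pgam2, the glycogen phosphorylase Pygm, and the lactate dehydrogenases Ldha and Ldhb. A gene was represented by every probe set (several short probes summarised as a single value) whose platform annotation gave that gene's symbol alone. This gave 16 of the 8740 probe sets other than manufacturer controls, for 9 of the 10 genes, and 15 of them were bright enough to be tested among 5244. A single probe set carried both the Ldha and the Ldhal1 symbol, so it is described by its identifier and no value is given for Ldha alone. A further 3 probe sets for hexokinase were array controls and were left out.

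The arrays compared old Fischer-344 rats of 22 months, with 6 arrays, with young Fischer-344 rats of 4 months, with 5 arrays. Fischer-344 is an inbred strain used in ageing research, and no allele, treatment or sex is given in the labels for either group. Total RNA of the ventricle was hybridised to Affymetrix rat arrays, and the comparison asks which of these transcripts differ with age. The labels do not tie arrays to animals, so a p-value here reflects the spread between samples, part of which may be technical. The material is a piece of tissue, in which fewer cells of a type and less RNA per cell cannot be told apart.

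Heart muscle takes up glucose through GLUT1, the product of Slc2a1, at rest and through GLUT4, the product of Slc2a4, which moves to the cell surface after insulin or contraction. Hexokinase traps the sugar as glucose 6-phosphate, phosphofructokinase commits it to glycolysis, and aldolase, the mutase and the later enzymes carry it to pyruvate. Glycogen phosphorylase releases stored glucose into the same route, and lactate dehydrogenase interconverts pyruvate and lactate. The adult heart draws most of its energy from fatty acids and uses more glucose under load, in fetal life or when oxygen is short.

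Of the 9 genes measured on their own, 8 were lower in the old arrays by the probe set that stands for the gene, the tested one of highest mean, and Slc2a1 alone was higher. Over all 3206 tested genes, 50.3% were lower in old. The median difference of the 9 genes was -0.39 on the log2 scale, against -0.01 over all tested genes. Slc2a4, Pfkm, Aldoa and Pygm had unadjusted limma p-values under 0.05, all with lower signal in old, a mark that 3.68% of all tested genes reached in that direction and 3.18% in the other. After Benjamini-Hochberg adjustment in limma, 0 of the 15 tested probe sets passed 0.05, and 0% of all 5244 did. The smallest adjusted p of these genes was 0.56 and the smallest on the array 0.355. The old and young values overlapped in every one of the 15 probe sets, while 0.973% of all tested probe sets had groups that did not overlap. The genes were chosen with results of these arrays known, so their counts are a description and no evidence on the pathway.

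**Figure D1:**
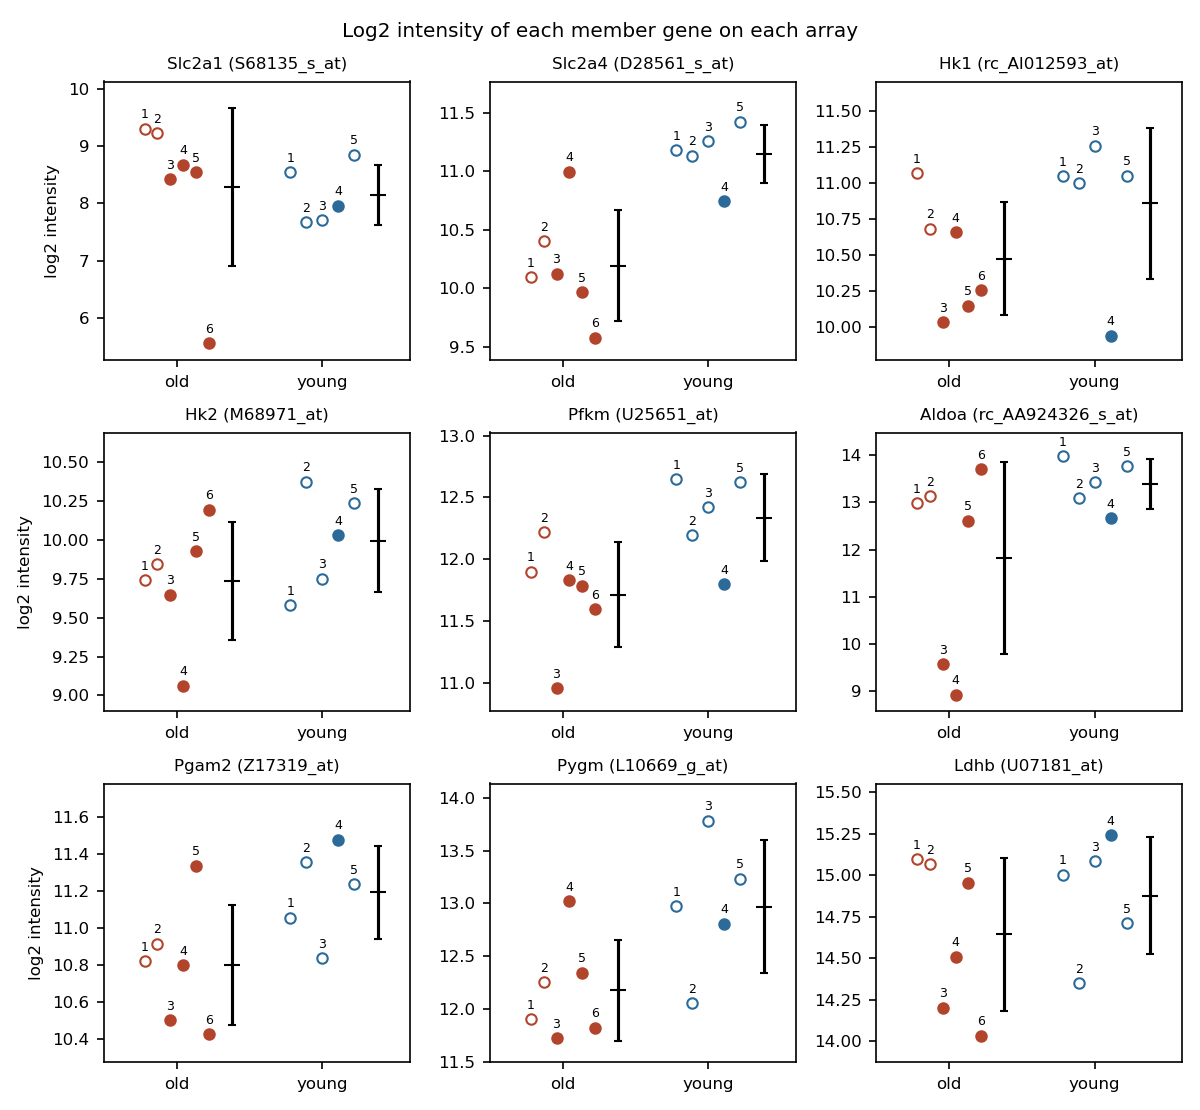
Log2 intensity of the 9 genes on each array, by the probe set that stands for the gene, with old arrays left and young arrays right and each point numbered by its replicate; bars give the group mean and SD (n = 6 old, n = 5 young), and filled points are arrays with bright bacterial spike-in controls. For Slc2a4 5 of 6 old arrays lie below every young one, the highest such count of the 9 genes, while Aldoa has old replicates 3 and 4 far below all other arrays.

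The arrays also differed in measures of quality, which ran partly with age. Over the log2 intensities of all 8740 probe sets other than controls, as deposited, correlation between arrays ran between 0.563 and 0.900. Over the 5244 tested probe sets, as processed for the comparison, an array's mean correlation with its own group was 0.591 to 0.734 in old. It was 0.741 to 0.835 in young, so that every old array was below every young one. Bacterial and phage spike-in controls, RNAs added to each sample, averaged 13.19 to 15.24 (log2) in old replicates 3 to 6 and 11.97 in young replicate 4. In old replicates 1 and 2 and the remaining young arrays they averaged 9.55 to 10.20. The log2 ratio of the 3' to the 5' signal of the GAPDH control, which is read as a sign of RNA integrity, was 3.39 and 4.09 in old replicates 3 and 4, against 0.07 to 0.77 in the other 9 arrays, so both high ratios were in old arrays. These controls describe the arrays only. Of 12 markers of heart muscle cells 11 were tested, 5 lower and 6 higher in old. Their summed intensities, in which the brightest genes weigh most, were 443733 to 670375 in old arrays and 381304 to 615012 in young ones. Singly, Nppa differed by 1.18 ± 0.49, Ryr2 by -0.77 ± 0.59 and Pln by -0.57 ± 0.57 (SE).

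Glucose transport was represented by both of the heart's main transporters. Slc2a4, read by D28561_s_at, had intensities with a lowest value of 763.8, a median of 1105 and a highest of 2043.1 in old arrays, against 2319.5, 2244.9, 2446.0, 1718.1 and 2748.6 in young arrays. All 6 old arrays lay under the young median and 5 of 6 under every young array, the exception being old replicate 4. The log2 means were 10.19 ± 0.48 in old (SD, n = 6) and 11.15 ± 0.25 in young (SD, n = 5), a difference of -0.95 ± 0.31 (SE, 95% interval -1.61 to -0.30), or 0.516 of the young level. Limma's adjusted p over all probe sets was 0.56.

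A second Slc2a4 probe set, rc_AA799760_s_at, ran the other way. Its intensities were 151.6 to 541.8 with a median of 368.4 in old arrays, against 296.7, 176.4, 111.8, 405.1 and 362.2 in young arrays. The groups overlapped widely and the difference was 0.48 ± 0.51 (SE, 95% interval -0.59 to 1.56), with a limma adjusted p of 0.849. When both Slc2a4 probe sets were averaged, the difference was -0.24 ± 0.29 (SE). The lower Slc2a4 signal thus rested on 1 of the 2 probe sets, and which of them follows the transcript better was not tested.

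Slc2a1 had intensities of 632.3, 598.0, 344.4, 409.7, 373.2 and 18.8 in old replicates 1 to 6, against 374.4, 204.2, 208.5, 249.0 and 460.9 in young replicates 1 to 5 (S68135_s_at). Old replicate 6 was under the floor of 47.4 applied to all intensities, whereas the other 5 old arrays were all above the young median. The difference was 0.14 ± 0.61 (SE, 95% interval -1.13 to 1.42; limma adjusted p = 0.971), and 0.69 ± 0.42 (SE) without old replicate 6. The second Slc2a1 probe set, M13979_at, was too dim to be tested, at 71.0 to 224.1 in old arrays and 31.1 to 183.3 in young arrays.

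The within-array contrast of the pair was Slc2a4 (D28561_s_at) minus Slc2a1 (S68135_s_at) in log2 intensity. It averaged 1.90 ± 1.15 in old (SD, n = 6) and 3.001 ± 0.47 in young (SD, n = 5). Because probe sets differ in brightness, only the change of this contrast between ages can be read, and it was -1.10 (exact two-sided permutation test over 462 splits, p = 0.0866, adjusted p = 0.173 over 2 pairs of isoforms). The contrast lay between 0.79 and 2.32 in old replicates 1 to 5, under all young values of 2.58 to 3.55, and was 4.01 in old replicate 6, where Slc2a1 was at the floor. Without that array the change was -1.52, with an exact permutation adjusted p of 0.0159. The remaining old values all lie under the young ones, so this is the smallest p that its 252 splits allow. With replicate number as a block, which also drops that array, the change was again -1.52, with an exact permutation adjusted p of 0.125. The call for this pair therefore depended on 1 array and on the block, and its p also moved with the floor. The unadjusted exact permutation p was 0.223 with the floor at the 10th percentile of intensities and 0.026 at the 30th. The contrast with the second Slc2a4 probe set, which differed by 0.48 rather than -0.95, was not tested.

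The hexokinases, which phosphorylate glucose on entry, differed by less than their spread. Hk1, the widely expressed hexokinase, had intensities of 1050.9 to 2148.2 with a median of 1422 in old arrays, against 2121.3, 2048.5, 2450.8, 984.5 and 2123.2 in young arrays (rc_AI012593_at). Young replicate 4 was the lowest array of all, and 5 of the 6 old arrays were below the young median. The difference was -0.38 ± 0.33 (SE, 95% interval -1.06 to 0.30; limma adjusted p = 0.802), and -0.01 ± 0.31 (SE) with the spike-in brightness of the arrays as a block. The other Hk1 probe set, U27319exon_at, had 748.6 to 1509.0 in old arrays and 660.0 to 1590.6 in young arrays, a difference of -0.01 ± 0.34 (SE).

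Hk2 encodes the insulin-responsive hexokinase of muscle. Its intensities were 534.8 to 1172.1 with a median of 888.7 in old arrays, against 766.7, 1329.7, 861.8, 1047.3 and 1207.4 in young arrays (M68971_at). Old replicate 4 was below every young array, young replicates 2 and 5 were above every old array, and the other values overlapped. The difference was -0.26 ± 0.33 (SE, 95% interval -0.95 to 0.43; limma adjusted p = 0.869). The second probe set, D26393exon_s_at, spread from 29.5 to 793.3 in old arrays and from 51.1 to 549.9 in young arrays, with a difference of 0.00 ± 0.82 (SE) that bounds little. The within-array contrast Hk2 minus Hk1 was -0.74 ± 0.62 in old (SD, n = 6) and -0.86 ± 0.66 in young (SD, n = 5), a change of 0.13 (exact permutation p = 0.742, adjusted p = 0.742).

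Phosphofructokinase was read by a pair of Pfkm probe sets that ran the same way. Pfkm is the muscle form of the enzyme at the committed step. With U25651_at the intensities were 1982.0 to 4755.3 with a median of 3583 in old arrays, against 6406.8, 4677.9, 5473.5, 3555.6 and 6309.6 in young arrays. All 6 old arrays were below the young median and 3 were below every young array. The log2 means were 11.71 ± 0.42 in old (SD, n = 6) and 12.33 ± 0.35 in young (SD, n = 5), and the difference was -0.62 ± 0.29 (SE, 95% interval -1.23 to -0.01; limma adjusted p = 0.651). Young replicate 4, the young array with bright spike-ins, was the lowest of its group, and the difference was -0.35 ± 0.30 (SE) with spike-in brightness as a block.

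The second Pfkm probe set, D21869_s_at, varied more. Its intensities were 890.7, 1818.6, 189.3, 335.7, 327.1 and 1468.7 in old replicates 1 to 6, against 1778.4, 1454.2, 751.9, 398.1 and 1088.3 in young replicates 1 to 5. The difference was -0.67 ± 0.56 (SE, 95% interval -1.85 to 0.50; limma adjusted p = 0.797). It was -0.04 without the 2 arrays of high GAPDH ratio, old replicates 3 and 4, and 0.07 with spike-in brightness as a block.

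Aldoa, the aldolase of muscle that splits fructose 1,6-bisphosphate, gave the largest difference of the 9 genes, and it came from 2 arrays. Its intensities were 8112.7, 8981.7, 762.0, 487.9, 6258.2 and 13291.3 in old replicates 1 to 6, against 16105.6, 8738.2, 11007.9, 6483.6 and 13877.9 in young replicates 1 to 5 (rc_AA924326_s_at). Old replicates 3 and 4 were far below the rest, and the other 4 old arrays lay largely within the young range. The difference over all arrays was -1.56 ± 0.68 (SE, 95% interval -2.99 to -0.13; limma adjusted p = 0.609). Without these 2 arrays, the ones of high GAPDH ratio, it was -0.28 ± 0.35 (SE, limma adjusted p = 0.944).

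**Figure D2:**
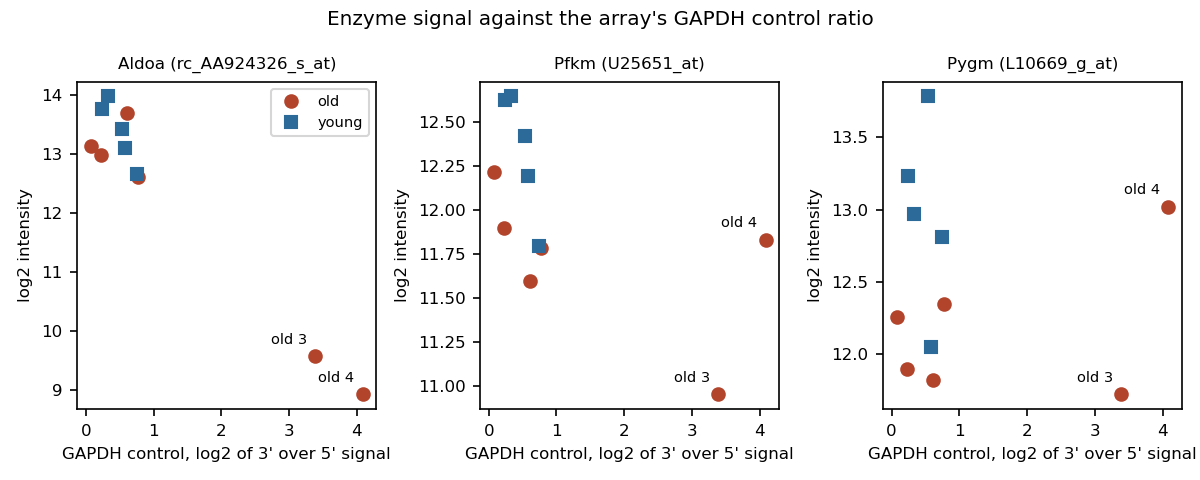
Log2 intensity of Aldoa, Pfkm and Pygm (vertical axes) against the log2 ratio of 3' to 5' signal of the GAPDH control (horizontal axes) on the 11 arrays; circles are old and squares young. Old replicates 3 and 4, at ratios of 3.39 and 4.09, have the lowest Aldoa signals, while Pygm in old replicate 4 is the highest old value.

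Pgam2 encodes the muscle form of phosphoglycerate mutase, near the end of glycolysis. Its intensities were 1377.5 to 2582.6 with a median of 1796 in old arrays, against 2129.4, 2617.1, 1828.2, 2848.7 and 2410.4 in young arrays (Z17319_at). Of the 6 old arrays, 4 were below every young array and old replicate 5 was above the young median. The difference was -0.39 ± 0.28 (SE, 95% interval -0.99 to 0.20; limma adjusted p = 0.768).

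Pygm, the muscle glycogen phosphorylase, was read by 2 probe sets made from 1 sequence record, so they share a target and are no independent readings. With L10669_g_at the intensities were 3820.1, 4882.8, 3379.1, 8305.7, 5197.6 and 3620.9 in old replicates 1 to 6, against 8038.9, 4244.6, 14104.8, 7173.1 and 9636.6 in young replicates 1 to 5. Old replicate 4 was as high as the middle of the young arrays, young replicate 2 was among the old values, and the other 5 old arrays lay below the remaining 4 young ones. The difference was -0.79 ± 0.33 (SE, 95% interval -1.49 to -0.10; limma adjusted p = 0.572).

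With L10669_at, Pygm had intensities of 1560.0 to 4011.7 with a median of 3166 in old arrays, against 5325.3, 4345.5, 7466.4, 3694.3 and 7664.2 in young arrays. Of the 6 old arrays, 5 were below every young array, old replicate 2 being the exception. The difference was -0.90 ± 0.31 (SE, 95% interval -1.55 to -0.25; limma adjusted p = 0.56). The difference by L10669_g_at was -0.80 with spike-in brightness as a block, -0.93 among dim arrays, -0.58 among bright arrays, of which 1 was young, and -0.89 without old replicates 3 and 4.

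Pygm and Pfkm were the genes of this group for which both probe sets were lower in old over all arrays and at least 1 had an unadjusted p under 0.05, which both had for Pygm and U25651_at alone for Pfkm. Their upstream sequences are shown for that reason, as the 250 bases before the annotated start in RefSeq assembly GRCr8, 5′ to 3′ on the plus strand, at chr1:213119555-213119804 for Pygm and chr7:131113849-131114098 for Pfkm. Capitals mark every match on either strand to CANNTG, the E-box core bound by muscle and circadian helix-loop-helix factors, or to ACGTG, the core bound by hypoxia-inducible factors. The motifs overlap where CACGTG occurs.
Pygm: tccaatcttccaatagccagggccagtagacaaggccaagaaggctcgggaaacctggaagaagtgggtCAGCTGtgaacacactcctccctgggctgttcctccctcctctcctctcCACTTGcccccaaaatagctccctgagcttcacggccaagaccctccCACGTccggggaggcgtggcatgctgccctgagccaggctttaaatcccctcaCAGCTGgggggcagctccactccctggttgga
Pfkm: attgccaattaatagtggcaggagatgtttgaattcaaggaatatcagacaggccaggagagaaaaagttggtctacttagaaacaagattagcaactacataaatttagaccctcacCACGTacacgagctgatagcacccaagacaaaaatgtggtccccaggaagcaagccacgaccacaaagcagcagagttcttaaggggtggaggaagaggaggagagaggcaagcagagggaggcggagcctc
Pygm held 3 matches to CANNTG, beginning at bases -181, -132 and -32 from the start, and 1 to ACGTG at -85. Pfkm held 0 matches to CANNTG and 1 to ACGTG, at -132. Among 33469 upstream sequences of this length, 65.5% held CANNTG and 16.6% held ACGTG. A match describes letters only. Of the 10 genes, 9 had an entry in the sequence table.

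Lactate dehydrogenase, the step after pyruvate, was read by 3 probe sets. Ldhb, the heart form of the subunit, had intensities of 16763.4 to 35077.6 with a median of 27536 in old arrays, against 32844.6, 20865.2, 34760.4, 38786.3 and 26839.9 in young arrays (U07181_at). The groups overlapped across most of their range, and the difference was -0.23 ± 0.31 (SE, 95% interval -0.88 to 0.41; limma adjusted p = 0.877). U07181_g_at, from the same sequence record, gave 0.09 ± 0.27 (SE). The probe set shared by Ldha, the muscle form of the subunit, and Ldhal1, M54926_at, had 4098.1 to 11638.5 with a median of 7383 in old arrays and 6618.7 to 10638.8 with a median of 8096.2 in young arrays. Its difference was -0.15 ± 0.30 (SE, 95% interval -0.77 to 0.48; limma adjusted p = 0.927).

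**Figure D3:**
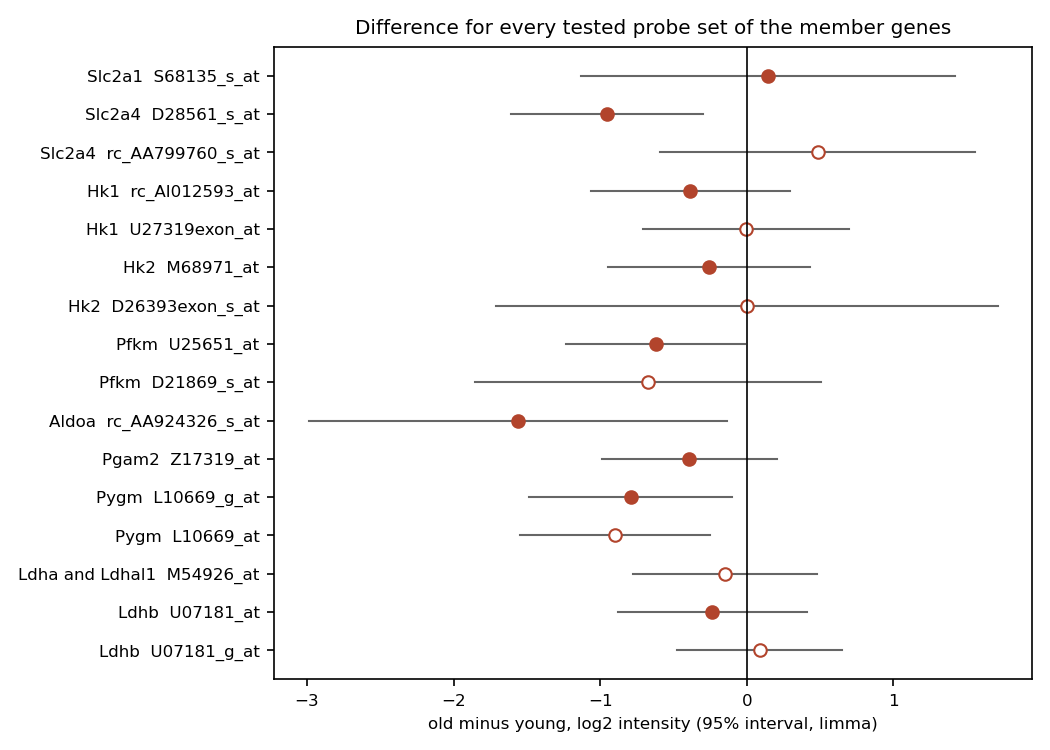
Difference of old minus young in log2 intensity for each tested probe set of the genes, with the 95% interval from limma; filled points are the probe sets that stand for a gene and open points the others. Both Pfkm and both Pygm probe sets lie left of 0, while the pair for Slc2a4 lies on opposite sides at -0.95 and 0.48.

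The arrays of 1 group differed in how many of the genes were low. Of the 9 genes, 6 to 8 were below the young median on each old array, and 1, 2, 3, 5 and 7 of them on the young arrays. Old replicates 3 and 6 each had 6 genes below every young array, old replicate 2 had 1, and old replicates 1, 4 and 5 had 3 each. The share of all tested genes at these marks was not computed for any array, so the counts describe the arrays and not these genes. Old replicates 6 and 3 also had the lowest mean correlations with their own group, 0.591 and 0.679. Among the young arrays, replicate 2 had 7 of the 9 genes below the group's median and replicate 5 had 1. The total of the young counts is fixed by the median, so only its division among the arrays is free. After removing the group means, the log2 values of Slc2a4 and Pygm had a Pearson r of 0.60 over the 11 arrays, Hk1 and Pfkm 0.74, and Slc2a4 and Hk2 -0.66, as a description of arrays that also differ in spike-in brightness. These pairs are examples from all pairs of the 9 genes, chosen by no stated rule. Others were of like size, such as Slc2a1 and Ldhb at 0.61 and Hk2 and Pygm at -0.64.

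Spike-in brightness of the arrays moved with some of the genes more than with others. After removing the group means, its Pearson r was -0.74 with Hk1, -0.72 with Slc2a1, -0.63 with Pfkm and -0.59 with Ldhb. It was -0.385 with Slc2a4, -0.28 with Aldoa, -0.11 with Pgam2, -0.10 with Pygm and 0.16 with Hk2. The difference of old minus young with brightness as a block was -0.84 for Slc2a4, -0.42 for Pgam2, -0.86 for Aldoa and -0.24 for Hk2. For Slc2a1 the difference was 0.61 with the block and for Ldhb -0.12. Both sets of arrays were also compared alone. Among the 6 dim arrays, 2 old and 4 young, the difference was -0.9995 for Slc2a4, -0.93 for Pygm, -0.50 for Aldoa and 1.07 for Slc2a1. The 5 bright arrays hold a single young sample, and the difference among them was -0.58 for both Slc2a4 and Pygm, 0.33 for Hk1 and -0.82 for Ldhb. The dim arrays gave 0.30 for Ldhb. By the probe sets that stand for the genes, Slc2a4, Pygm, Pfkm, Aldoa, Pgam2 and Hk2 were lower in old in each of these choices of arrays, and Slc2a1, Hk1 and Ldhb were not. Other probe sets of the same genes went differently: Pfkm by D21869_s_at was 0.07 with the block, 0.08 among dim and 0.07 among bright arrays. Slc2a4 by rc_AA799760_s_at was 0.27 with the block, 0.55 among dim arrays, -0.19 among bright arrays and 0.61 without old replicates 3 and 4. Pygm by L10669_at was -0.68, -0.82 and -0.44 with the block, among dim and among bright arrays.

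**Figure D4:**
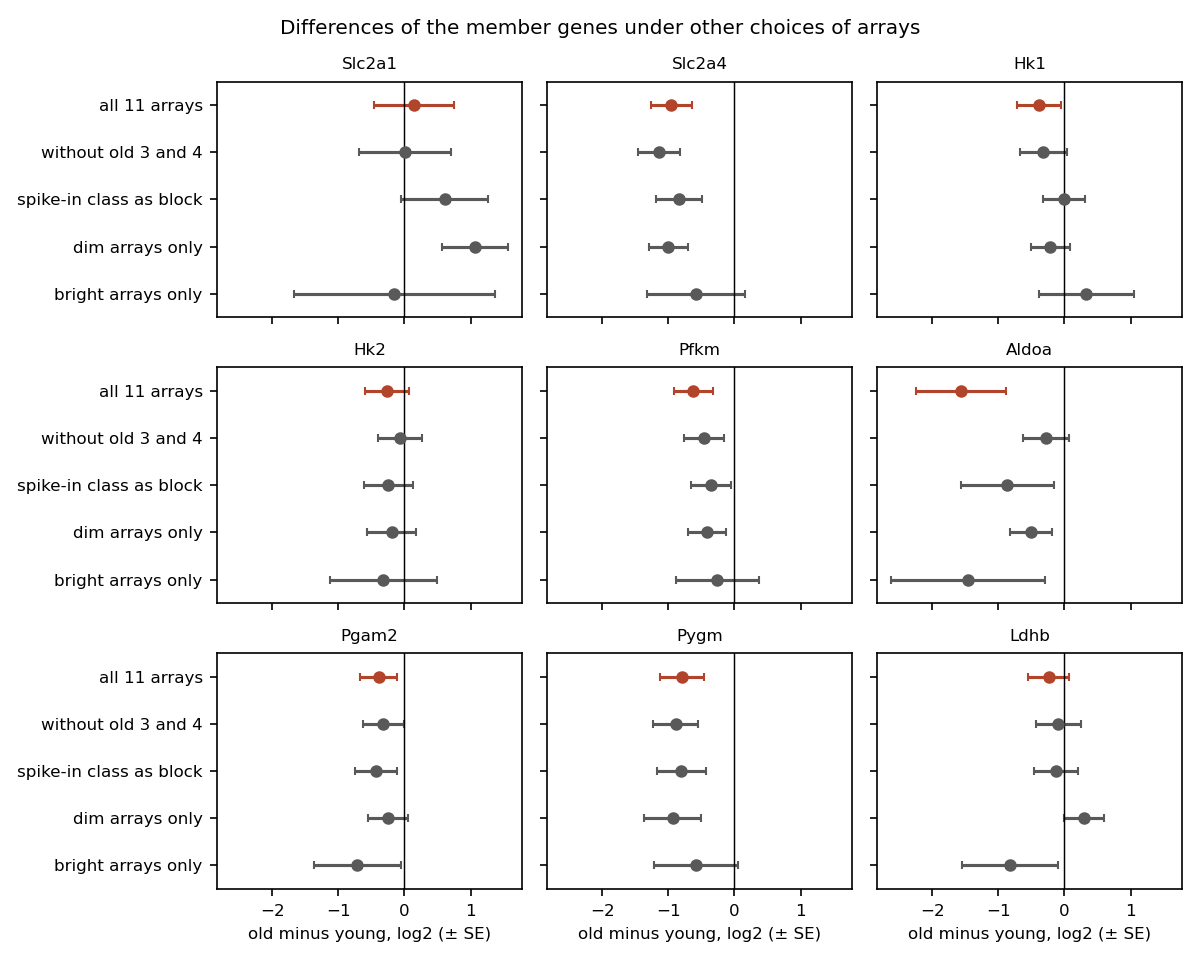
Difference of old minus young in log2 intensity (± SE) for the 9 genes over all 11 arrays, without old replicates 3 and 4, with spike-in brightness as a block, and among the dim or the bright arrays alone. Slc2a4 and Pygm stay between -1.14 and -0.58 in all 5, and Aldoa moves between -1.56 and -0.28.

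The rest of the pathway lay on both sides of 0. Lists of glucose transport, glycolysis, lactate, glycogen, branch and regulatory genes held 82 further genes, of which 56 were on the array and 42 were tested. Of these 42, 19 were lower and 23 higher in old, with a median difference of 0.03, and 0 passed the adjusted threshold in limma. In glycolysis outside the genes above, 5 were lower and 7 higher, with a median of 0.05. Of the regulators 6 were lower and 3 higher, with a median of -0.31. Glucose transport and lactate each had 1 lower and 2 higher, with medians of 0.20 and 0.27. The branch genes had 3 lower and 3 higher, with a median of 0.15. The lists were written with earlier results of these arrays known.

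Other isoforms at the same steps differed in sign from one another without passing the test. The liver phosphofructokinase Pfkl differed by -1.04 ± 0.56 (SE) and the platelet form Pfkp by 0.45 ± 0.43. The brain aldolase Aldoc differed by 0.48 ± 0.64, and the mutase Pgam1, the non-muscle form, by -0.17 ± 0.29. Phosphoglycerate kinase Pgk1 differed by 0.07 ± 0.42, the enolases Eno1 and Eno3 by 0.03 ± 0.33 and 0.45 ± 0.41, and pyruvate kinase Pkm by -0.41 ± 0.34. In glycogen metabolism, where 3 of 9 tested genes other than Pygm were lower and 6 higher, the brain phosphorylase Pygb differed by -0.73 ± 0.34. Its intensities were 1170.3 to 4659.9 with a median of 2966.4 in old arrays and 3154.8 to 6146.6 with a median of 4278.6 in young arrays, with 4 of 6 old arrays below every young one (limma adjusted p = 0.648).

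Beyond Pygb, 2 further genes of the lists had an unadjusted limma p under 0.05. This made 2 lower and 1 higher among the 42 tested. Over all tested genes, 3.68% were lower and 3.18% higher at that mark. The count is near the share over all genes and is no result about the lists. Prkab1, a regulatory subunit of the energy sensor AMP-activated kinase, had intensities of 71.0 to 717.0 with a median of 332.8 in old arrays and 758.3 to 1020.0 with a median of 785.7 in young arrays. These groups did not overlap, which held for 0.973% of all tested probe sets. The difference for Prkab1 was -1.46 ± 0.50 (SE; limma adjusted p = 0.56). Pc, the pyruvate carboxylase that feeds oxaloacetate into the citric acid cycle, was on the other side at 155.0 to 804.2 with a median of 347.1 in old arrays and 36.8 to 375.9 with a median of 131.2 in young arrays. Its difference was 1.53 ± 0.61 (SE; limma adjusted p = 0.56).

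**Figure D5:**
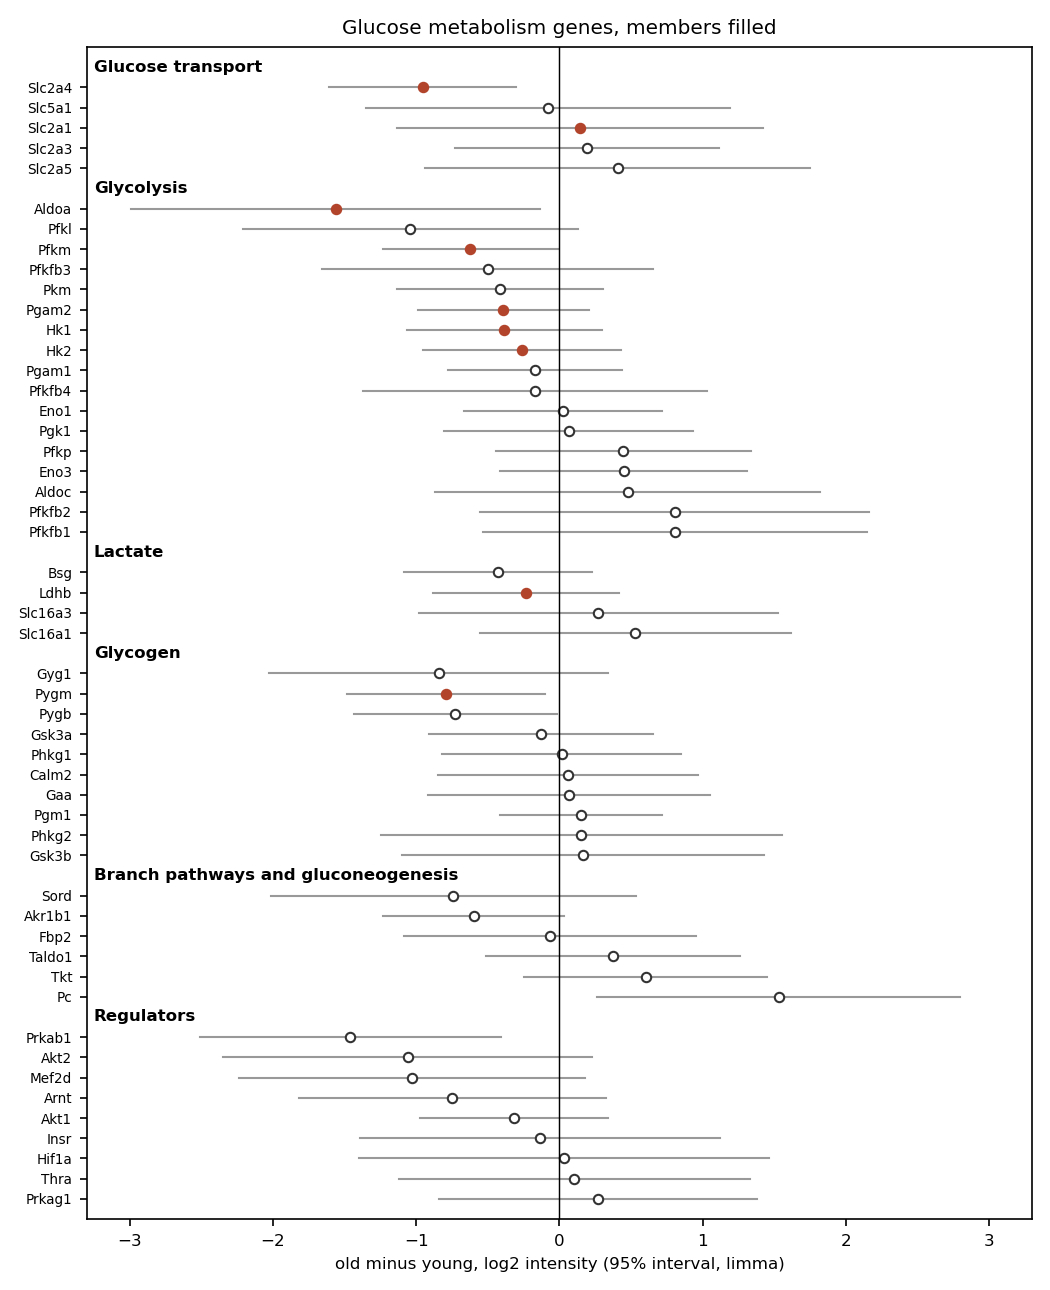
Difference of old minus young in log2 intensity with the 95% interval from limma for each tested gene of the pathway lists, ordered by size within a list; filled points are the 9 genes followed here and open points the others. The filled points lie left of 0 except Slc2a1, while the 42 open ones divide into 19 left and 23 right of 0.

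Markers of other tissues and cell types were read beside these genes because several muscle forms of the enzymes are also abundant in skeletal muscle. Of 14 skeletal muscle markers 5 were tested, 1 lower and 4 higher in old, with summed intensities of 1233.2 to 3774.8 in old arrays and 1069.6 to 2242.3 in young ones. The 3 atrial markers tested were all higher in old, with summed intensities of 9875.5 to 97376.2 in old arrays and 3757.6 to 35862.6 in young arrays, and so were 4 red cell markers, at 19214.7 to 229932 in old arrays and 2710.1 to 112370 in young arrays. Nppa was on both the atrial and the heart muscle list. The other atrial markers, Myl4 and Myl7, differed by 0.83 ± 0.91 and 0.95 ± 0.82 (SE). The red cell markers Hbb, Hbb-b1, Slc4a1 and Alas2 differed by 1.71 ± 0.93, 1.29 ± 0.81, 0.40 ± 0.40 and 0.12 ± 0.71 (SE). The lowest red cell sums were in old replicate 3 and young replicate 4. The 3 macrophage markers tested summed to 2227.1 to 36643.5 in old arrays and to 1440.1 to 2788.5 in young arrays. The highest sum, in old replicate 3, was mostly Lyz2, at 35867.8, while Cd14 of the same list differed by -0.31 ± 0.45 (SE).

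In the other marker lists, single genes stood apart while the lists lay on both sides of 0. Of 5 fat cell markers 3 were higher and 2 lower in old, with summed intensities of 7519.8 to 12997.8 in old arrays and 7531.4 to 15561.8 in young arrays. Among them Cfd differed by 1.69 ± 0.61 and Fabp4 by 0.81 ± 0.45 (SE), each with 5 of 6 old arrays above every young one. The other higher one, Plin1, differed by 0.84 ± 0.58 (SE). The 2 lower ones were Lpl at -0.62 ± 0.41 and Lep at -0.39 ± 0.28 (SE), with 4 of 6 old arrays below every young one for Lep. Lpl and Lep had the highest mean signals of the list, so they weigh most in its sum. Of 6 fibroblast markers 3 were higher and 3 lower, with sums of 24606.4 to 65247.8 in old arrays and 28409 to 78577.2 in young arrays. Lum, a matrix proteoglycan, differed by 1.19 ± 0.37 (SE), with all 6 old arrays above every young one. The 3 lower ones were Col3a1 at -0.91 ± 0.48, Col1a1 at -0.74 ± 0.49 and Col1a2 at -0.22 ± 0.34 (SE). Of 4 liver markers 2 were higher and 2 lower, with sums of 1018.8 to 2372.6 in old arrays and 917.2 to 2312.3 in young arrays. Alb, serum albumin, differed by 1.87 ± 0.58 (SE), and the 2 lower ones were Apoa1 at -0.74 ± 0.68 and Serpina1 at -0.71 ± 0.76 (SE). Both endothelial markers tested were lower, with differences of -0.92 ± 0.68 for Pecam1 and -0.51 ± 0.73 for Kdr (SE) and sums of 113.2 to 1249.8 in old arrays and 288.4 to 1241.2 in young arrays. The only nerve marker tested, Mbp, differed by 0.17 ± 0.53 (SE). None of these markers passed the adjusted threshold in limma, and they were picked out after their values were seen. Their part in the differences above was not tested.

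The tested genes whose log2 values followed a member most closely over the 11 arrays, after removing the group means, were found for the 3 with the smallest p. Slc2a4 was followed by Skic8, Anxa5 and Ankfy1 (r of 0.92, 0.92 and 0.89). Pygm was followed by Nenf, Wipf3 and Tmem218 (r of 0.91, 0.86 and 0.85), and Aldoa by Fgfr1, Ddah1 and Lamc1 (r of 0.96, 0.94 and 0.94). These are the highest of 3206 values for each gene, and the arrays behind the Aldoa values include old replicates 3 and 4 at their low signals.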

How the data were processed

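The authors deposited 1 linear intensity per probe set and array, from 0.2 to 307756 over 8799 probe sets. Which software, background correction or detection filter made them is not given in the sources used here. With 2% trimmed from each end, array means were 499.6 to 499.99. The deposited scaling was therefore kept, and differences are relative to the other transcripts of an array. Intensities were raised to the 20th percentile (47.4) and put on the log2 scale, which understates differences of dim genes. The 59 controls and probe sets with a mean under the 40th percentile were left out, leaving 5244. The age groups were compared with limma 3.58.1 (R 4.3.3; lmFit, eBayes with trend, two-sided, Benjamini-Hochberg at 0.05). The fit was tried on data simulated with the spread of each probe set, in 5 runs with 200 changed probe sets each. It found 7.6% of 2-fold and 44.8% of 4-fold changes, so in such data most 2-fold differences would not pass. The simulated errors were independent, without variation shared across an array. The changed probe sets also included 8-fold and 16-fold changes, which bear on the adjusted threshold. These shares therefore need not hold for the arrays themselves. The number of arrays limits the precision: the median SE of a log2 difference was 0.56. Isoform pairs were compared by exact two-sided permutation tests; Ldha against Ldhb was not tested, as no probe set reads Ldha alone. Gene names are those of GEO's platform annotation, which gives a single gene on 7006 probe sets, more than 1 on 308 and no gene on 1426. Of the single symbols, 6985 matched RefSeq GRCr8 and 0 differed. Alternatives were other floors, filters, scalings, variance models and array weights, a replicate block, spike-in brightness (arrays divided at the widest gap) as a block or by class, and leaving out arrays.

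The genes and lists were chosen with earlier results of these data known. Named were all member probe sets, pathway genes with an unadjusted p under 0.05, the tested phosphofructokinase, aldolase, mutase, enolase, kinase and phosphorylase genes of the steps between the members, and the 3 genes closest to each of the 3 members of smallest p. Marker genes, those of heart muscle included, were named by no such rule, after their values were seen.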

Additional observations from a re-analysis of the deposited data

Results flagged for a closer look

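Among the tested probe sets of these genes, 3 of 30 groups held an array whose distance to its nearest neighbour was large against the range of the group by Dixon's test, which chance gives in about 1 of 20 groups. Slc2a1 (S68135_s_at) was at 5.567 (log2 intensity, the floor) in old replicate 6. Pygm (L10669_at) was at 10.61 in old replicate 3. Hk1 (rc_AI012593_at) was at 9.943 in young replicate 4, the young array with bright spike-in controls.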

How the results depend on the processing

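Over 24 alternatives, 7 to 9 of the 9 genes were lower in old, and the median of all tested genes, not computed for averaged probe sets, moved by over 0.1 only under quantile normalization (-0.11), median centring (-0.29) and among bright arrays alone (-0.18). In each of these the count below that median was 7 or 8 of 9. Slc2a4 differed by -1.24 to -0.24, Pygm by -1.08 to -0.58, Pfkm by -0.91 to -0.26, Aldoa by -1.94 to -0.28, Pgam2 by -0.71 to -0.25 and Hk2 by -0.55 to -0.07, and the smallest adjusted p of any of the 9 was 0.131 (Slc2a4, array weights). Probe sets past the adjusted threshold numbered 0 over all arrays, 1 among dim arrays, 5 among bright arrays and 0 to 2 when 1 array was left out (2 without old replicate 5). Slc2a1 turned to -0.012 with a floor at the 10th percentile, -0.064 with median centring and -0.16 among bright arrays, and lay between -0.059 and 0.69 when 1 array was left out. Hk1 turned to 0.33 among bright arrays and Ldhb to 0.30 among dim ones. The change of Hk2 minus Hk1 turned to -0.23 with spike-in class as a block, to -0.66 among bright arrays, and lay between -0.035 and 0.36 when 1 array was left out. The cause of these turns was not tested. After removing the group means, old and young arrays of the same number had correlations from -0.25 to 0.25. Arrays of different numbers were not compared in this way, so whether replicate numbers pair the samples was not tested. With the replicate block, which drops old replicate 6, the difference was -0.83 for Slc2a4 and -0.72 for Pygm, the change of Hk2 minus Hk1 turned to -0.0096, and 0 probe sets passed. With 6 and 5 arrays, the 95% intervals of the 9 genes each spanned more than 1 log2 unit.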
